A study of Mus musculus with 3 samples.

Results

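The 6 genes of the platelet-derived growth factor (PDGF) system described here are the ligand genes Pdgfa, Pdgfb, Pdgfc and Pdgfd and the receptor genes Pdgfra and Pdgfrb. They were taken by symbol from the 31253 genes listed in each count matrix, and all 6 were found in all 3 matrices. The study profiled single cells of the arcuate nucleus of the hypothalamus, a region that controls feeding, with a droplet kit that counts unique molecular identifiers (UMIs), each marking 1 captured transcript molecule. All mice were male C57BL/6JRj, 5-6 weeks old and placed on a study diet at weaning. One group stayed on standard chow (SC) for 15 days. Of the groups given a diet high in fat and sugar (HFHS), the 5-day group had it for the last 5 of 15 days, after 10 days of chow, and the 15-day group had it throughout. Micropunched tissue of 6 mice per diet was pooled into 1 suspension and 1 library, so no diet had a second library and no test between diets was possible. Every interval below is a 95% interval that covers counting error only, and a ratio compares 2 libraries rather than 2 diets.

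PDGF ligands are secreted as dimers that bind receptor tyrosine kinases on nearby cells. Pdgfra and Pdgfrb encode those receptors; Pdgfa and Pdgfc products act chiefly through the receptor encoded by Pdgfra, Pdgfb products act through both, and Pdgfd products act chiefly through the receptor encoded by Pdgfrb. In the brain, PDGF-A is known as a mitogen and survival factor for oligodendrocyte precursor cells (OPCs), and endothelial PDGF-B recruits pericytes, the cells that wrap capillaries. PDGF-C and PDGF-D are secreted with an inhibitory domain that proteases such as tissue plasminogen activator or urokinase remove.

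After filtering, 4825 SC, 4041 5-day and 5157 15-day cells were analysed, with median depths of 5131, 5779 and 4130 UMIs per cell. Clusters were named from marker genes that included none of the 6, and the 6 were left out of the clustering. A name ends in "-like" because it rests on markers alone. Of 13 named classes, 9 had at least 100 cells in every library and were compared between libraries; cells resembling committed oligodendrocyte precursors (COP-like, 176 cells) and vascular leptomeningeal fibroblasts (VLMC-like, 89 cells) had fewer. The neuron-like cells held the arcuate peptide transcripts Agrp, Npy, Pomc and Cartpt in every library, and Kiss1 had 0 UMIs in every library. Their mix differed between libraries. Cluster 30, led by Agrp and Npy, had 6 SC, 32 5-day and 33 15-day cells. Cluster 28, led by Avp and Rgs16, had 9, 9 and 32 in the same order. The libraries shared few cell barcodes, 2 between the kept SC and 5-day cells, 22 between SC and 15-day cells and 23 between 5-day and 15-day cells. Clusters 4, 32 and 33, with 12, 44 and 36 cells, held 15-day cells only and stayed unnamed.

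The genes lie on GRCm38 at chr5:138976014-138997370 (Pdgfa, minus strand), chr15:79995874-80014977 (Pdgfb, minus strand), chr3:81036416-81214040 (Pdgfc, plus strand), chr9:6168584-6378850 (Pdgfd, plus strand), chr5:75152292-75198215 (Pdgfra, plus strand) and chr18:61045150-61085061 (Pdgfrb, plus strand), and all are protein-coding. None shares an exon with another counted gene on its own strand. On the opposite strand, exons of Pdgfa overlap 6330403L08Rik, those of Pdgfc overlap Gm16000 and those of Pdgfra overlap Gm42802, and the sources used here do not say whether counting used the strand.

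The 6 genes were spread over a few glial and vascular classes. Levels are counts per 1000000 UMIs of the class (CPM), and a mean ± SD is over the 3 libraries, which differ in diet. Pdgfb led in endothelial-like cells, Pdgfc in tanycyte-like cells (glia lining the base of the hypothalamic ventricle), Pdgfra in OPC-like cells and Pdgfrb in pericyte-like cells. The unnamed clusters, 14.6% of cells, held 19.2% of Pdgfrb and 13.8% of Pdgfra UMIs. Pdgfa and Pdgfd each had 2 leading classes that could not be separated beyond their spread.

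**Figure D1:**
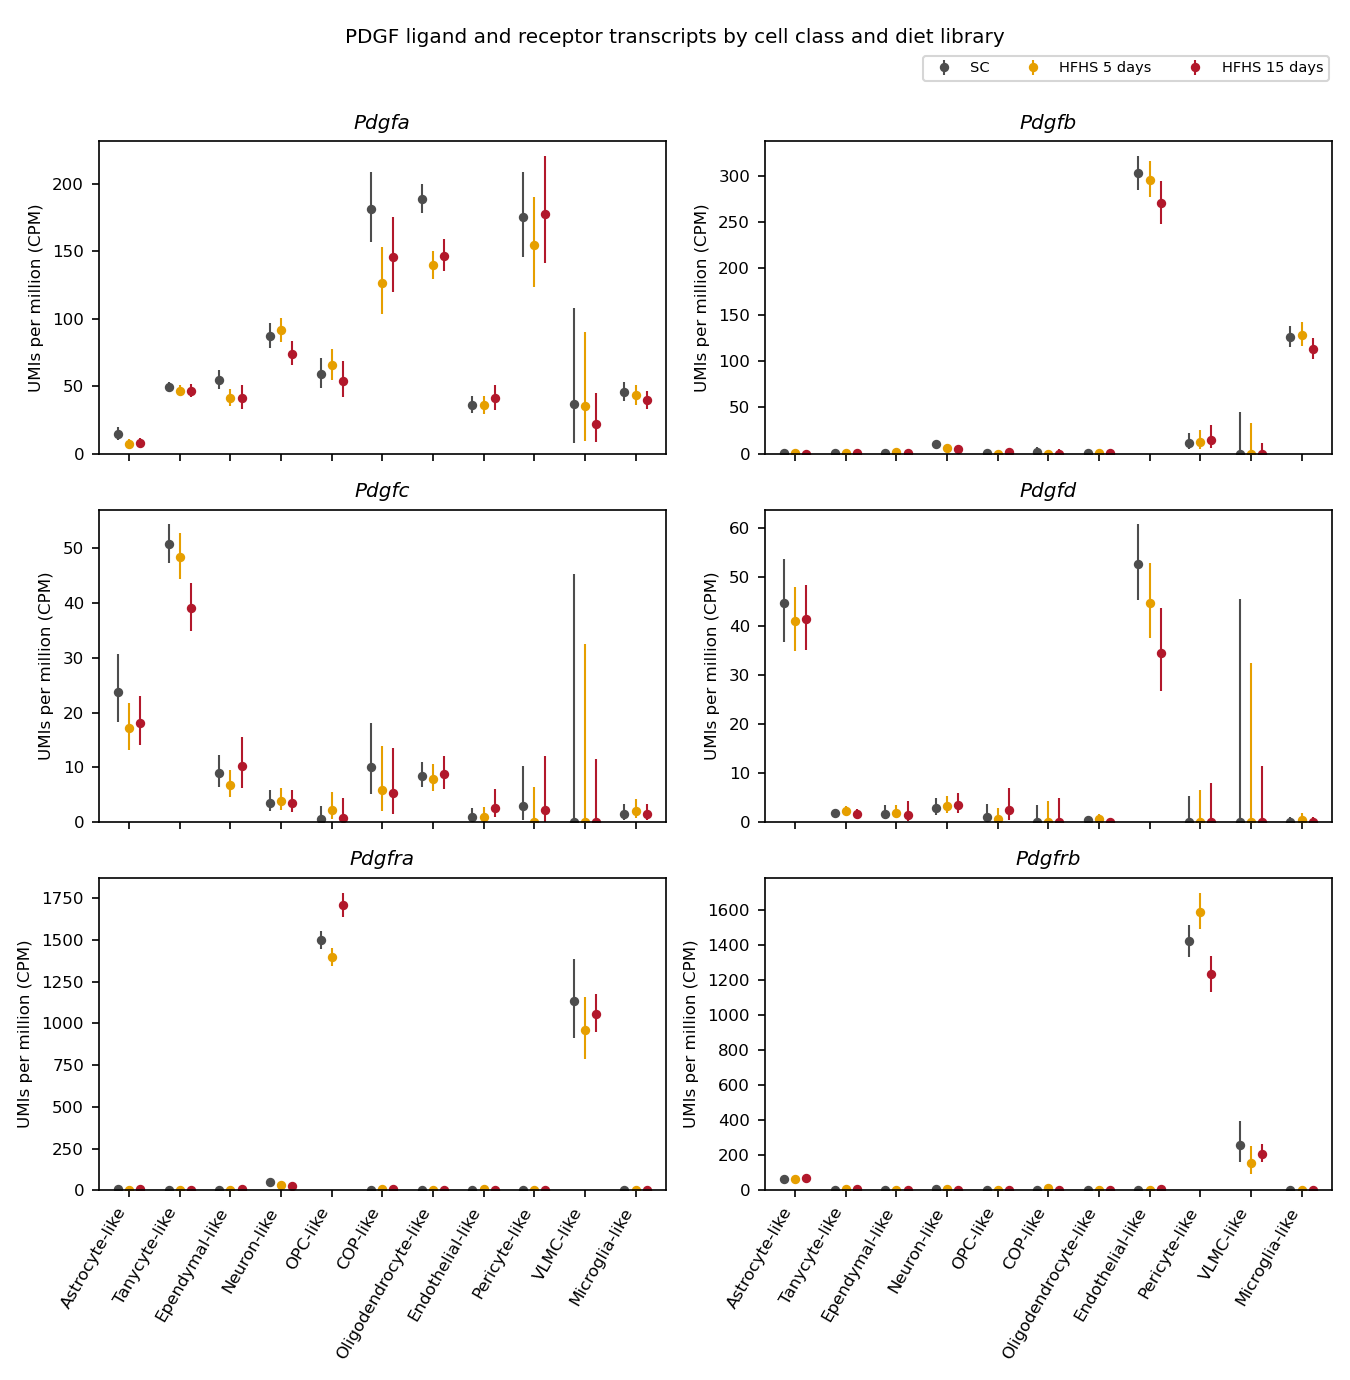
Each panel plots 1 gene. Points are CPM in 1 class and 1 library (SC, HFHS 5 days, HFHS 15 days, from left to right) and bars are 95% Poisson intervals of counting error; each panel has its own axis. Pdgfb stood highest in endothelial-like cells at 270 to 303 CPM, and Pdgfra in OPC-like cells at 1395 to 1709 CPM.

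Pdgfa, the ligand gene with the widest expression, was read in every compared class. In pericyte-like cells it had 175 CPM in the SC library, 154 CPM in the 5-day library and 178 CPM in the 15-day library, a mean of 169 ± 12.9 CPM. The leading genes of the pericyte-like class included the smooth muscle markers Tagln, Tpm2, Acta2 and Myl9 beside pericyte markers. Its Pdgfa level is therefore not a level of pericytes alone, and vascular subclusters are described below. Oligodendrocyte-like cells had 189 CPM in the SC, 140 CPM in the 5-day and 147 CPM in the 15-day library. The ranges overlapped, and the log2 ratio of pericyte-like over oligodendrocyte-like cells was 0.10 [-0.08 to 0.27]. Under 5 other filters or clusterings the ratio lay below 0, between -1.15 and -0.22, so which of the classes leads depends on the processing. COP-like cells, at 151 ± 27.9 CPM, overlapped both. Next came neuron-like cells at 84.3 ± 9.06 CPM and OPC-like cells at 59.4 ± 5.72 CPM, each of whose lowest library lay above the highest library of the following class. Tanycyte-like, ependymal-like, microglia-like and endothelial-like cells followed at 47.5, 45.7, 42.8 and 37.6 CPM without separation between neighbours. Astrocyte-like cells were lowest of the compared classes, at 9.99 ± 3.89 CPM.

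By total transcripts the order of sources differed. Oligodendrocyte-like cells made up 8.18% of cells and held 26.7% of all Pdgfa UMIs, and tanycyte-like cells, 12.4% of cells, held 17.4%. Pericyte-like cells were 3.00% of cells and held 3.06%. With every cell thinned to 1500 UMIs, 18.9% [16.6 to 21.2] of oligodendrocyte-like cells and 17.2% [13.6 to 21.4] of pericyte-like cells had a Pdgfa UMI, with 7 and 44 shallower cells left out. Without thinning the shares were 72.3% and 34.2%, at median depths of 13219 and 3730 UMIs, and the thinned shares, unlike the unthinned ones, overlapped.

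Within the clusters with oligodendrocyte-lineage genes, Pdgfra was high in OPC-like cells and very low in the COP-like and oligodendrocyte-like ones. Pdgfa was lower in OPC-like cells than in those, without a steady rise among them. Clusters are listed here from precursor-like to mature-like by their other genes, and cluster numbers carry no order. OPC-like cells (cluster 25, led by C1ql1 and Lhfpl3) had 60.04 CPM of Pdgfa with the libraries pooled. COP-like cells (cluster 26, led by Bmp4 and Gpr17) had 154 CPM. Cluster 19, an unnamed cluster with genes of both committed precursors and oligodendrocytes (9630013A20Rik, Nfasc, Mag, Tmem163), had 267 CPM. The 2 oligodendrocyte-like clusters then parted: cluster 18, led by Ptgds and Mal, had 125 CPM, and cluster 3, led by Klk6 and Hapln2, had 424 CPM.

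Cluster 3 was the highest of the lineage in each library, at 467 CPM in SC, 370 CPM in 5-day and 370 CPM in 15-day cells, above cluster 19 at 260, 264 and 280 CPM. Its median depth was 17481 UMIs, against 13078 UMIs in cluster 18. Pdgfra was high in OPC-like cells and low in the clusters listed after them. OPC-like cells had 1513 CPM of Pdgfra with the libraries pooled, and COP-like cells had 4.46 CPM. Cluster 19 had 5.95 CPM, cluster 18 had 2.23 CPM and cluster 3 had 0.514 CPM, from 1 UMI. Cluster 24, unnamed because of its low depth (median 1442 UMIs) and led by the division genes Top2a, Ube2c and Mki67, held Cspg4 and C1ql1 UMIs and had 1691 CPM of Pdgfra.

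**Figure D2:**
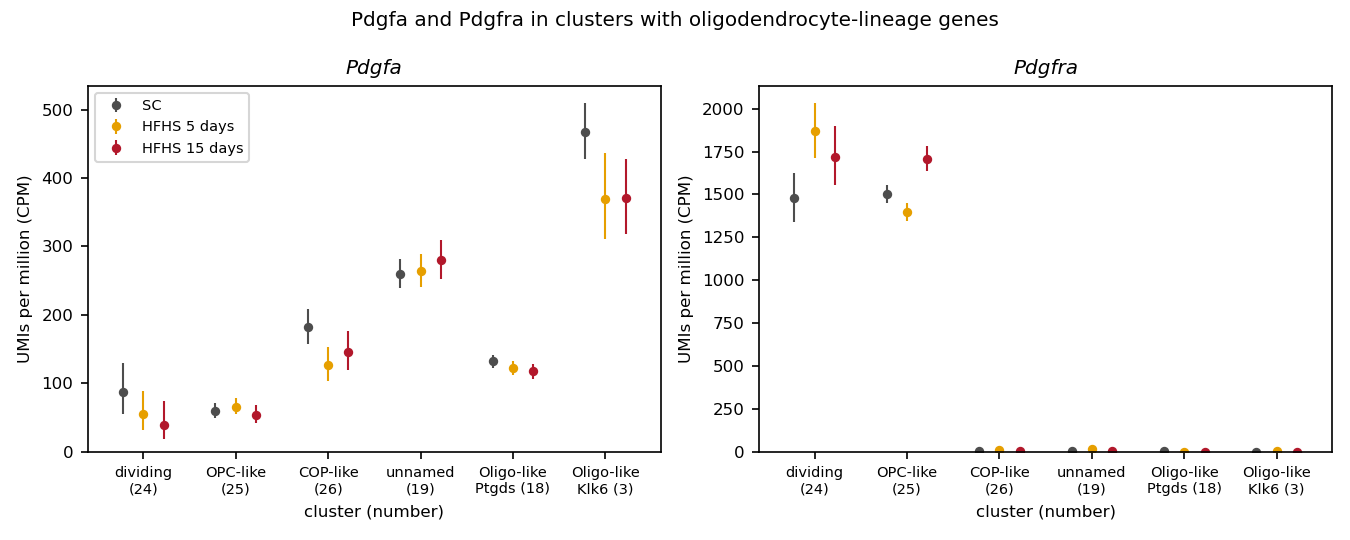
The panels plot Pdgfa (left) and Pdgfra (right) in CPM by cluster, with the SC, HFHS 5-day and HFHS 15-day libraries from left to right and 95% Poisson intervals. Pdgfra was at 1395 CPM or more in every library of clusters 24 and 25 and near 0 in the other clusters, while Pdgfa was highest in the Klk6 cluster.

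In vessels, Pdgfa was highest in subclusters with contractile or arterial genes. The endothelial-like, pericyte-like and VLMC-like cells and the vascular unnamed clusters were clustered again. A smooth muscle-like subcluster (subcluster 1, 62 cells, led by Tagln, Acta2 and Pln) had 319 CPM of Pdgfa. The unnamed subcluster 7 (73 cells, led by Serpini1, with Casq2, Carmn and Notch3), which held markers of 2 classes, had 312 CPM. Its leading genes also included the pericyte markers Rgs5, Ndufa4l2, Cox4i2, Art3 and Higd1b. The larger pericyte-like subcluster 8 (293 cells, led by Kcnj8 and Vtn) had 64.7 CPM. These 3 subclusters held 138, 90 and 68 Pdgfa UMIs. Subcluster 8 thus had the most cells of the 3 and the fewest Pdgfa UMIs. The high Pdgfa level of the pericyte-like class does not show that pericytes are a leading source. Arterial-like endothelial cells (subcluster 2, led by Gkn3 and Sema3g) had 141 CPM and venous-like ones (subcluster 3, led by Lcn2 and Slc38a5) had 21.9 CPM. Smaller arterial-like subclusters 11 and 13, with 28 and 10 cells, had 36.4 and 367 CPM.

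Pdgfb, the ligand gene of the pericyte receptor, was mainly in endothelial-like and macrophage-lineage classes. Endothelial-like cells had 303 CPM in the SC, 296 CPM in the 5-day and 270 CPM in the 15-day library. Microglia-like cells had 126, 129 and 113 CPM in the same order. The lowest endothelial-like library stood above the highest microglia-like one, and the log2 ratio between the classes was 1.24 [1.14 to 1.34]. Border macrophage-like cells (106 cells) averaged 37.1 ± 4.89 CPM and pericyte-like cells 12.96 ± 1.98 CPM. OPC-like, oligodendrocyte-like and astrocyte-like cells each averaged under 1 CPM, and VLMC-like cells had 0 UMIs.

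Endothelial-like cells held 53.1% of all Pdgfb UMIs and microglia-like cells 26.7%. Thinned to 1500 UMIs, 35.1% [32.0 to 38.3] of endothelial-like and 15.0% [13.2 to 17.0] of microglia-like cells had a Pdgfb UMI, against 0.148% of OPC-like cells, a class expected to lack the gene. The thinned counts left out 111, 243 and 0 cells; unthinned shares were 72.1%, 40.6% and 0.444% at median depths of 5993, 5042 and 7268 UMIs. Other endothelial transcripts were few in microglia-like cells. The 10 endothelial markers summed to 52.8, 72.6 and 53.1 CPM in SC, 5-day and 15-day microglia-like cells, and to 26059 to 29448 CPM in endothelial-like cells. The 64 Cldn5 UMIs of all microglia-like cells stood beside 1266 Pdgfb UMIs, where endothelial-like cells had 50179 Cldn5 and 2518 Pdgfb UMIs. Within microglia-like cells, Pdgfb was at 137 CPM in cluster 10 (led by Ccl4 and Ccl3) and 131 CPM in cluster 11 (led by Cx3cr1 and Selplg). It was at 25.1 CPM in cluster 15, whose cells were shallow (median 1615 UMIs). Along the vessel, Pdgfb was at 355 CPM in arterial-like subcluster 2, 290 CPM in venous-like subcluster 3 and 265 CPM in the fenestrated subcluster 9 (25 cells).

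Pdgfc, a ligand gene for the receptor encoded by Pdgfra, was mainly a tanycyte transcript in these libraries. Tanycyte-like cells had 50.7 CPM in the SC, 48.5 CPM in the 5-day and 39.1 CPM in the 15-day library. Astrocyte-like cells had 23.8, 17.1 and 18.2 CPM in the same order and were next. The ranges did not overlap, and tanycyte-like cells stood above astrocyte-like cells by a log2 ratio of 1.23 [1.01 to 1.45]. Tanycyte-like cells held 71.3% of all Pdgfc UMIs. Among their clusters, cluster 2 (led by Scn7a, with Col25a1 and Dio2) had 78.8 CPM, cluster 5 (led by Crym, with Frzb and Rax) 53.0 CPM and cluster 13 (led by Rspo3 and Tgfb2) 34.2 CPM. Thinned to 1500 UMIs, 7.64% [6.39 to 9.04] of tanycyte-like cells had a Pdgfc UMI, against 0.205% of microglia-like cells; unthinned, the shares were 44.3% and 0.937% at median depths of 10921 and 5042 UMIs. VLMC-like cells, the class with fibroblast genes, had 0 Pdgfc UMIs.

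Pdgfd, a ligand gene for the pericyte receptor, was shared by endothelial-like and astrocyte-like cells. Endothelial-like cells had 52.5 CPM in the SC, 44.7 CPM in the 5-day and 34.4 CPM in the 15-day library. Astrocyte-like cells had 44.5, 41.0 and 41.3 CPM. The ranges overlapped and the log2 ratio of endothelial-like over astrocyte-like cells was 0.05 [-0.15 to 0.25]. Both classes stood above all others, of which neuron-like cells were highest at 3.12 ± 0.301 CPM. Pericyte-like, COP-like, border macrophage-like and VLMC-like cells had 0 Pdgfd UMIs. Astrocyte-like cells, 20.2% of all cells, held 38.3% of all Pdgfd UMIs and endothelial-like cells 35.2%. Thinned to 1500 UMIs, 7.24% [5.65 to 9.10] of endothelial-like and 6.52% [5.58 to 7.56] of astrocyte-like cells had a Pdgfd UMI, against 0.148% of OPC-like cells. Unthinned shares were 27.2%, 13.1% and 0.888% at median depths of 5993, 2974 and 7268 UMIs. Among endothelial-like cells with a Pdgfb UMI, 33.6% also had one of Pdgfd, and among those without, 10.7% did, at median depths of 7435 and 2915 UMIs, so the difference in depth was not removed.

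Pdgfra, the receptor gene that marks OPCs, was high in OPC-like and VLMC-like cells. OPC-like cells had 1502 CPM in the SC, 1395 CPM in the 5-day and 1709 CPM in the 15-day library. VLMC-like cells had 1132, 960 and 1058 CPM from 11, 18 and 60 cells. The lowest OPC-like library stood above the highest VLMC-like one. With the libraries pooled, OPC-like cells held 73.7% of all Pdgfra UMIs. The next compared class, neuron-like cells, had 52.1, 32.9 and 24.2 CPM, and the log2 ratio of OPC-like over neuron-like cells was 5.40 [5.26 to 5.53], and 9.49 with at most 10% mitochondrial UMIs per cell. Thinned to 1500 UMIs, 88.5% [85.8 to 90.8] of OPC-like and 70.4% [59.2 to 80.0] of VLMC-like cells had a Pdgfra UMI. The share was 0.796% in pericyte-like cells, a class not known for this receptor. The thinned counts left out 0, 8 and 44 cells. Unthinned shares were 99.4%, 88.8% and 0.950%, at median depths of 7268, 5618 and 3730 UMIs.

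The Pdgfra in VLMC-like cells came almost without OPC transcripts. VLMC-like cells had 540 Pdgfra UMIs with 2 of Cspg4 and 4 of C1ql1, both OPC markers, and OPC-like cells had 7738 Pdgfra UMIs with 3522 of Cspg4 and 9278 of C1ql1. Neuron-like cells differed in this. Their 454 Pdgfra UMIs came with 261 of Cspg4, or 174 Pdgfra per 100 Cspg4 UMIs, against 220 per 100 in OPC-like cells. Of those 454, 323 lay in neuron subcluster 4 (99 cells), which carried endothelial, pericyte and astrocyte genes, and 95 in subcluster 12 (14 cells), which met the OPC marker rule. AgRP-like neurons (subcluster 8, 72 cells) had 2 Pdgfra UMIs.

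Pdgfrb, the receptor gene that marks pericytes, had 1418 CPM in the SC, 1588 CPM in the 5-day and 1231 CPM in the 15-day pericyte-like cells. VLMC-like cells had 258, 159 and 209 CPM, and astrocyte-like cells 66.8, 62.6 and 67.6 CPM. The 3 classes did not overlap, and the log2 ratio of pericyte-like over astrocyte-like cells was 4.43 [4.30 to 4.55]. No other compared class averaged above 6.65 CPM, the level of neuron-like cells. Thinned to 1500 UMIs, 83.6% [79.4 to 87.1] of pericyte-like, 30.9% [21.1 to 42.1] of VLMC-like and 9.94% [8.79 to 11.2] of astrocyte-like cells had a Pdgfrb UMI, against 0.432% of endothelial-like cells. The thinned counts left out 44, 8, 352 and 111 cells, and unthinned shares were 94.8%, 59.6%, 19.7% and 3.18% at median depths of 3730, 5618, 2974 and 5993 UMIs.

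In astrocyte-like cells Pdgfrb came with far fewer pericyte transcripts than in pericyte-like cells. Their 666 Pdgfrb UMIs stood beside 56 of Vtn, 53 of Rgs5 and 8 of Higd1b, pericyte marker genes, which is 1189 Pdgfrb per 100 Vtn UMIs. Pericyte-like cells had 8.98 Pdgfrb per 100 Vtn UMIs and endothelial-like cells 10.1. All 9 pericyte markers together summed to 59.0, 40.2 and 44.5 CPM in SC, 5-day and 15-day astrocyte-like cells, less than Pdgfrb alone, with 8, 7 and 9 of the 9 detected. The main astrocyte-like clusters were alike in this, with 70.8 CPM in cluster 0, 54.7 CPM in cluster 17 and 71.3 CPM in cluster 23, of which cluster 23 had 85 Pdgfrb and 0 Higd1b UMIs. The shallow cluster 29 (119 cells, median 1076 UMIs) had 0 Pdgfrb UMIs. By total, astrocyte-like cells held 14.9% of all Pdgfrb UMIs and pericyte-like cells 55.2%. VLMC-like cells had 106 Pdgfrb, 0 Higd1b and 2 Rgs5 UMIs, with 1061 of Vtn.

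**Figure D3:**
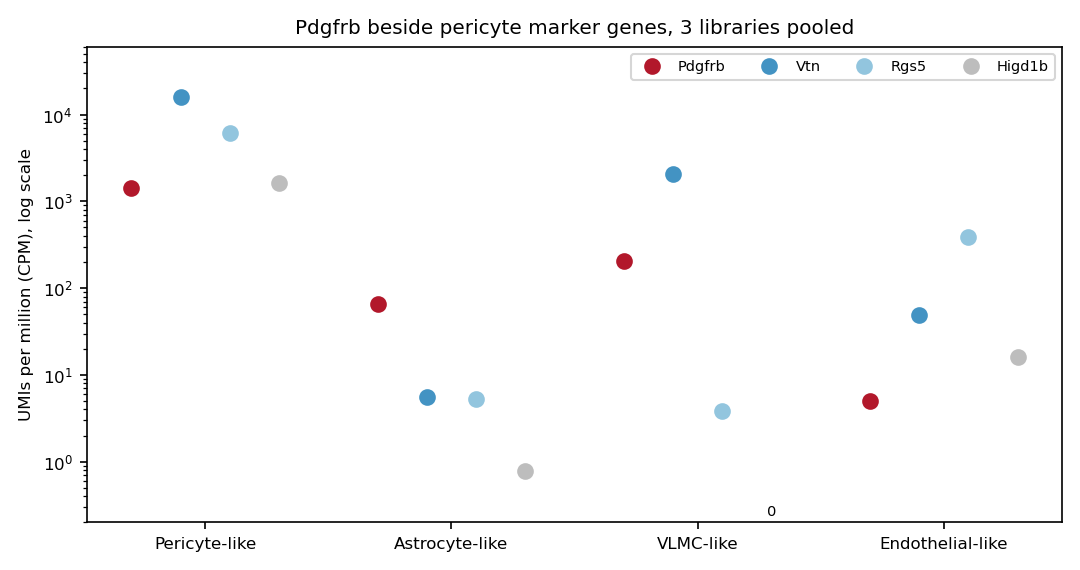
Points are CPM on a log axis of Pdgfrb and 3 pericyte marker genes in 4 classes, with the 3 libraries pooled; "0" marks a gene with no UMI. Pdgfrb lay below Vtn in pericyte-like, VLMC-like and endothelial-like cells and above it in astrocyte-like cells.

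Along the vessel wall, Pdgfrb was at 1810.5 CPM in pericyte-like subcluster 8 and 1456 CPM in subcluster 7, against 328 CPM in the smooth muscle-like subcluster 1. Subcluster 10 (74 cells, median 15316 UMIs) was also named pericyte-like but had 217 CPM of the endothelial ligand gene Pdgfb beside 550 CPM of Pdgfrb. The pericyte-like class itself averaged 12.96 CPM of Pdgfb. The cells clustered again also included unnamed cluster 7, which carried Cldn5 and Flt1 along with Rgs5. The source of the Pdgfb UMIs in subcluster 10 was not tested. Arterial-like and venous-like subclusters 2 and 3 had 1.32 and 6.26 CPM of Pdgfrb. The VLMC-like subcluster 12 had 1172 CPM of Pdgfra and 219 CPM of Pdgfrb, so both receptor genes were read in that class. Of 89 VLMC-like cells, 50 had a UMI of each receptor gene, 29 of Pdgfra alone and 3 of Pdgfrb alone.

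**Figure D4:**
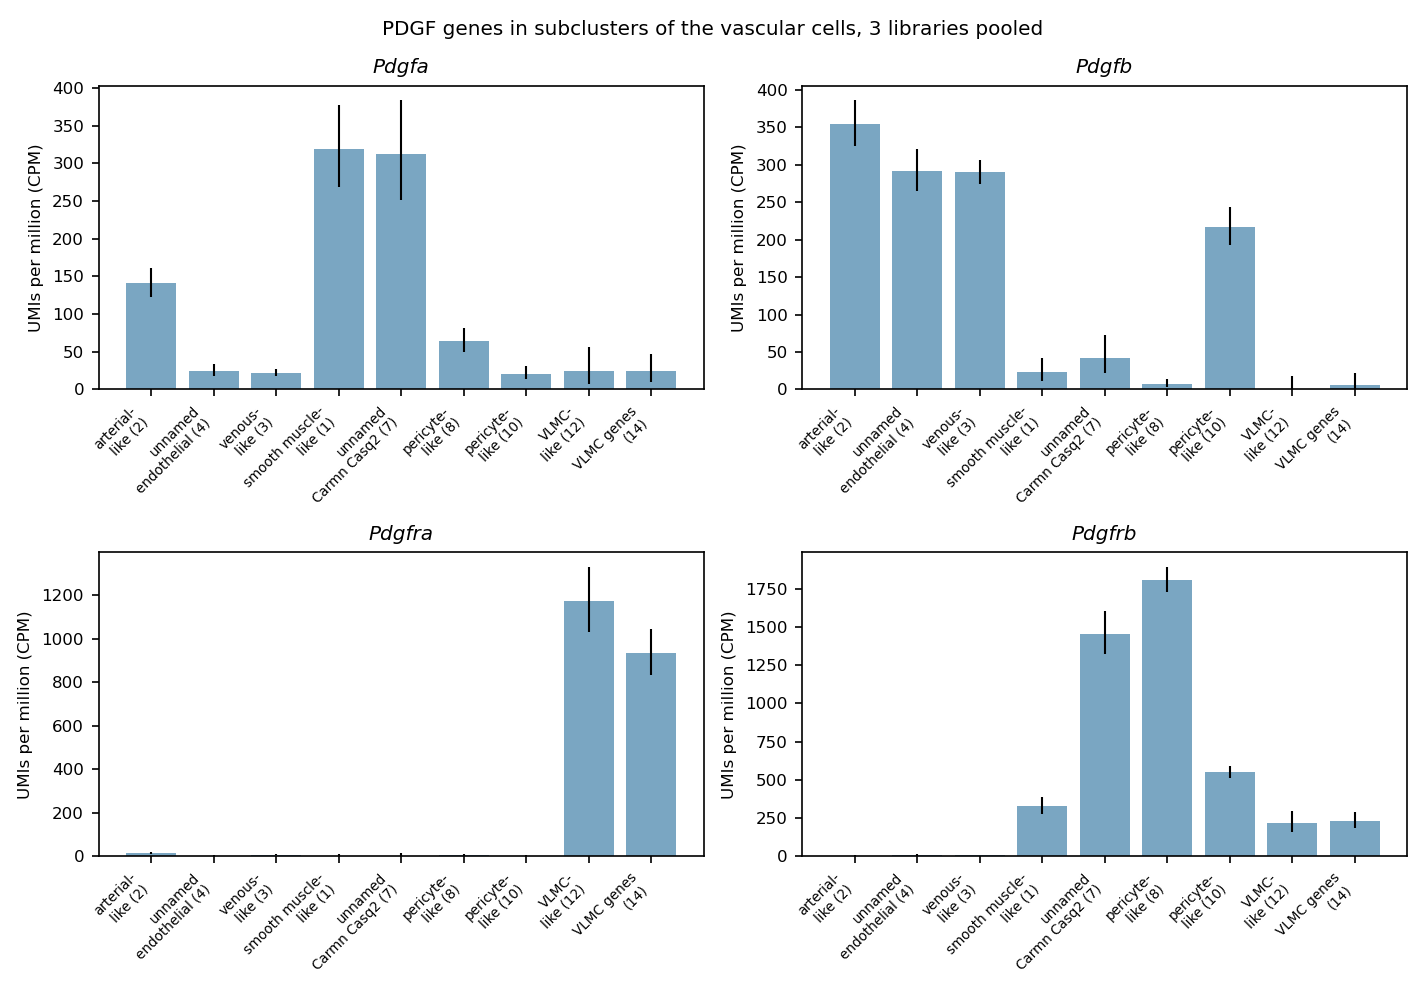
Bars are CPM of 4 genes in 9 subclusters of the vascular cells with the 3 libraries pooled, and lines are 95% Poisson intervals; numbers in brackets name subclusters, and subcluster 14 drew 52 of its 56 cells from the 15-day library. Pdgfb was mainly on the endothelial side but also in pericyte-like subcluster 10. Pdgfrb was mainly on the mural side but also in VLMC-like subcluster 12, and Pdgfra was in the subclusters with VLMC genes.

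Ligand and receptor transcripts were also read in the same cells. In OPC-like cells, 233 of 676 had UMIs of both Pdgfa and Pdgfra. In pericyte-like cells, 136 of 421 had UMIs of both Pdgfa and Pdgfrb. Since nearly every cell of these classes had a UMI of the receptor gene, these counts do not show whether ligand and receptor transcripts go together. In tanycyte-like cells, 470 of 1740 had UMIs of both Pdgfa and Pdgfc; 61.0% of cells with a Pdgfa UMI also had one of Pdgfc, against 31.1% of the others, at median depths of 22360 and 7500 UMIs.

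Genes with the most similar pattern were ranked by Pearson correlation over the 27 class and library sums (9 classes, 3 libraries of each) on a log2(CPM + 10) scale, among 12528 genes with at least 500 UMIs. The points share libraries and classes, and r is given as a description. For Pdgfra the closest were Vxn (r = 0.995), Elfn1, Adarb2, C1ql1 and Neu4 (r = 0.987). For Pdgfrb they were Notch3 (r = 0.995), a receptor of mural cells, then Atp13a5, Sntb1, Cped1 and Ggt1 (r = 0.963). Pdgfb was closest to Srgn (r = 0.993), Cd34, Grap, Smagp and Slc40a1 (r = 0.983), and Pdgfc to Lgr6 (r = 0.942), A2m, Pdzph1, Rax and Col23a1 (r = 0.901). Pdgfd was closest to Mcc (r = 0.967), Alpl, Parvb, Qsox1 and Slco1c1 (r = 0.914). Pdgfa, with its wide expression, had the least close partners, from Fam174a (r = 0.887) and Slco3a1 through Rcan2 and Siah2 to Tpst1 (r = 0.850).

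Between diet libraries, no PDGF gene passed the size rule in its leading class. Both HFHS libraries were set against the same SC library, so the 5-day and 15-day ratios are not independent. A gene was considered with 100 or more UMIs over the pair of libraries and 30 CPM or more in one of them. It was called past the size rule when its ratio reached 1.5 and its counting interval lay wholly beyond a factor of 5/4. Of 54 pairs of a PDGF gene and a class, 17 had enough UMIs in each comparison. Past the size rule was 1 pair per comparison, Pdgfra in neuron-like cells both times, in a class where 7.0% (5-day) and 17.0% (15-day) of all genes considered passed it and 54.0% and 60.1% had an interval that excluded 0. Over both comparisons, 14 of 34 member intervals excluded 0, beside 9.27% to 60.1% of all genes in the single classes.

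**Figure D5:**
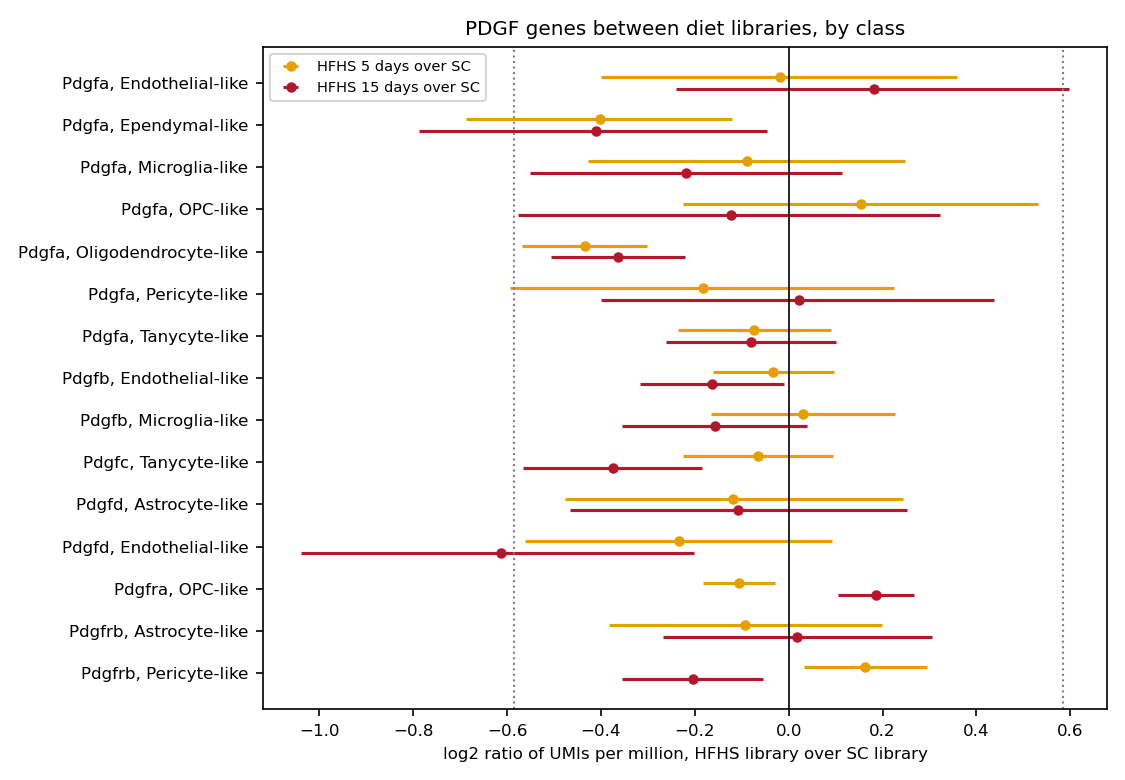
Points are log2 ratios of CPM in the HFHS 5-day or HFHS 15-day library over the SC library for each PDGF gene and class with enough UMIs, neuron-like cells left out. Bars are 95% exact binomial intervals of counting error, and dotted lines mark a ratio of 1.5 in either direction; the one point past a line, Pdgfd in 15-day endothelial-like cells, had an interval that did not clear the size rule.

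Pdgfra in OPC-like cells was at 1395 CPM in the 5-day library against 1502 CPM in the SC library, a log2 ratio of -0.11 [-0.18 to -0.03]. It was at 1709 CPM in the 15-day library, a log2 ratio of 0.19 [0.11 to 0.27]. The HFHS libraries thus lay on opposite sides of the SC library. Neither ratio was past the size rule, which 0.181% (5-day) and 1.49% (15-day) of OPC-like genes passed, and 9.27% and 18% of them had an interval that excluded 0. The 9 OPC markers summed to 7118 CPM in the 5-day, 6694 CPM in the 15-day and 7030 CPM in the SC library. The share of thinned OPC-like cells with a Pdgfra UMI was 87.1% in the 5-day, 89.4% in the 15-day and 88.7% in the SC library, with overlapping intervals.

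Pdgfrb in pericyte-like cells was at 1588 CPM in the 5-day library against 1418 CPM in the SC library, a log2 ratio of 0.16 [0.03 to 0.29]. In the 15-day library it was at 1231 CPM, a log2 ratio of -0.20 [-0.36 to -0.05]. Intervals that excluded 0 were found for 9.66% and 25.1% of pericyte-like genes in the 5-day and 15-day comparisons, and the size rule was passed by 0.460% and 4.26%. Marker sums of the class also differed between these libraries. The 9 pericyte markers summed to 22894 CPM and the 8 smooth muscle markers to 22254 CPM in the 15-day library, against 31319 and 13654 CPM in the SC library, and all 17 were detected in both. By cells, vascular subclusters 1, 7 and 8 had 25, 34 and 102 SC cells and 23, 17 and 102 15-day cells. What part the marker sums had in the Pdgfrb ratio was not tested. Within pericyte-like subcluster 8 alone, Pdgfrb had 1741 CPM in the 15-day and 1745 CPM in the SC library, with a log2 ratio of -0.0031 [-0.18 to 0.17]. The 5-day library had 1932 CPM there, a ratio of 0.15 [-0.0033 to 0.30] whose interval included 0. In astrocyte-like cells the Pdgfrb ratios were -0.09 [-0.38 to 0.20] for the 5-day and 0.02 [-0.27 to 0.31] for the 15-day library.

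Pdgfb in endothelial-like cells had a log2 ratio of -0.03 [-0.16 to 0.10] in the 5-day and -0.16 [-0.32 to -0.01] in the 15-day library. In microglia-like cells its ratios were 0.03 [-0.17 to 0.23] and -0.16 [-0.35 to 0.04]. The size rule was passed by 0.507% and 2.69% of endothelial-like genes, and intervals excluded 0 in 14% and 26.3%. In microglia-like cells these shares were 0.516% and 1.83%, and 12.4% and 27.9%. The share of all Pdgfb UMIs that came from microglia-like cells was 35.1% in the 15-day library and 23.9% in the SC library. That share also depends on how many UMIs each class gave in a library. Within the classes, the 15-day log2 ratio was -0.16 in both.

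Pdgfd in endothelial-like cells was at 34.4 CPM in the 15-day library against 52.5 CPM in the SC library, from 67 and 186 UMIs. Its log2 ratio of -0.61 [-1.04 to -0.20] was the largest of any PDGF gene outside neuron-like cells, but its interval reached inside a factor of 5/4. Without the fenestrated cluster 8, which drew 16 of its 19 cells from the 15-day library, the ratio was -0.66 [-1.10 to -0.24]. The 5-day library, at 44.7 CPM, had a ratio of -0.23 [-0.56 to 0.09]. The size of both depended on the treatment of depth, with -1.03 for the 5-day library when cells were thinned to 1500 UMIs and -1.18 for the 15-day library when cells were weighted equally. Among the vascular cells clustered again, unnamed subcluster 0 (markers of 2 classes, median 2776 UMIs) had 77 SC, 78 5-day and 170 15-day cells. Venous-like subcluster 3 had 138, 136 and 76 cells in the same order. What part these shifts had in the endothelial-like Pdgfd and Pdgfb ratios was not tested. Astrocyte-like cells, the other Pdgfd class, had ratios of -0.12 [-0.48 to 0.24] and -0.11 [-0.47 to 0.25], in a class where 1.60% and 0.850% of genes passed the size rule and 31.6% and 17.7% had an interval that excluded 0.

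Pdgfc in tanycyte-like cells was at 39.1 CPM in the 15-day library against 50.7 CPM in the SC library, a log2 ratio of -0.37 [-0.57 to -0.19], while the 5-day ratio was -0.06 [-0.23 to 0.09]. The size rule was passed by 0.111% (5-day) and 1.2% (15-day) of tanycyte-like genes, and intervals excluding 0 were common, at 19.2% and 43.2%. By cluster, the 15-day and SC values were 53.3 and 89.4 CPM in cluster 2, 40.6 and 58.4 CPM in cluster 5, and 32.9 and 34.6 CPM in cluster 13. With the clusters held in a fixed mix the ratio was -0.41, but with cells thinned to 1500 UMIs it was -0.09.

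Pdgfa in oligodendrocyte-like cells was at 140 CPM in the 5-day and 147 CPM in the 15-day library against 189 CPM in the SC library. The log2 ratios were -0.43 [-0.57 to -0.30] and -0.36 [-0.51 to -0.22]. The size rule was passed by 0.791% and 1.78% of oligodendrocyte-like genes, and 18.5% and 33.1% had an interval that excluded 0. The Klk6 cluster, where Pdgfa is highest, held 15 of 323 cells in the 5-day, 35 of 393 in the 15-day and 59 of 431 in the SC library. The unnamed cluster 32, 44 cells of the 15-day library led by Tac2 and Sst, also carried Klk6, Hapln2 and Mog, is not in these counts and had 60.5 CPM of Pdgfa. With the mix of clusters 18 and 3 held fixed, the ratios were -0.18 (5-day) and -0.22 (15-day). Cluster 18 alone gave -0.11 [-0.27 to 0.05] and -0.17 [-0.35 to 0.01], and cluster 3 alone gave -0.34 [-0.62 to -0.06] and -0.34 [-0.59 to -0.09].

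Other classes with Pdgfa gave ratios of either sign. In ependymal-like cells they were -0.40 [-0.69 to -0.12] for the 5-day and -0.41 [-0.79 to -0.05] for the 15-day library, where 0.208% and 1.65% of genes passed the size rule and 17.3% and 25.1% had an interval that excluded 0. In pericyte-like cells they were -0.18 [-0.59 to 0.22] and 0.02 [-0.40 to 0.44], with either sign under other settings (up to 0.73 for the 5-day and down to -0.53 for the 15-day library). In tanycyte-like cells they were -0.07 and -0.08. In OPC-like cells they were 0.15 [-0.22 to 0.53] and -0.12 [-0.58 to 0.32]. In neuron-like cells they were 0.07 [-0.14 to 0.27] and -0.24 [-0.47 to -0.0049], in endothelial-like cells -0.02 and 0.18, and in microglia-like cells -0.09 and -0.22.

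Pdgfra in neuron-like cells was at 32.9 CPM in the 5-day library, 24.2 CPM in the 15-day library and 52.1 CPM in the SC library. Its log2 ratios over SC were -0.66 [-0.98 to -0.35] and -1.11 [-1.48 to -0.74]. The 9 OPC markers in neuron-like cells, all detected in each library, summed to 293 CPM in the 5-day, 276 CPM in the 15-day and 443 CPM in the SC library. Without the OPC-like subcluster 12 the ratios were -0.53 [-0.87 to -0.19] and -1.29 [-1.73 to -0.86]. The mixed subcluster 4, which held 323 of the 454 UMIs, had 98.5 CPM in 33 5-day, 131 CPM in 23 15-day and 115 CPM in 43 SC cells. Without subclusters 4, 10 and 12, Pdgfra had 3.15 CPM in the 5-day, 3.20 CPM in the 15-day and 4.35 CPM in the SC neuron-like cells, too few UMIs for the size rule, and the ratios of -0.47 [-1.84 to 0.87] and -0.44 [-1.81 to 0.89] do not show whether those cells differed.

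Of the wider pathway, 31 genes were listed in 4 roles, and those with at least 50 UMIs in a comparison were counted. In OPC-like cells, 9 of 23 were higher and 14 lower in the 5-day library, with a median log2 ratio of -0.06 against -0.01 over all genes so measured. In the 15-day library 7 were higher and 16 lower, with a median of -0.13 against -0.05 over all genes. None was past the size rule in OPC-like cells. In pericyte-like cells, 9 of 20 were higher and 11 lower in the 5-day library (median -0.01, all genes -0.04; 11 higher and 9 lower under median-of-ratios scaling), and 6 of 19 were higher and 13 lower in the 15-day library (median -0.22, all genes -0.10). Levels of pathway genes below are compared only among OPC-like, pericyte-like, endothelial-like and tanycyte-like cells, the leading classes of the members.

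In pericyte-like cells of the 15-day library, 1 of the 10 pathway genes with enough UMIs and CPM for the size rule was past it, against 4.26% of all such genes. It was Plat, which encodes tissue plasminogen activator, an activator of PDGF-C. It was at 245 CPM in the 15-day library against 395 CPM in the SC library, a log2 ratio of -0.69 [-1.02 to -0.37], while the 5-day library had 472 CPM and a ratio of 0.26 [0.01 to 0.51]. The 15-day class also had the lower pericyte and higher smooth muscle marker sums given above, whose part in the Plat value was not tested. Of the other genes of ligand processing, Serpine2, which encodes a protease inhibitor, was highest in OPC-like cells at 1738 ± 141 CPM. Furin, a protease that cleaves PDGF-A and PDGF-B precursors, was highest in pericyte-like cells at 60.5 ± 4.63 CPM.

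Among genes of binding partners, Sparc, which encodes a matrix protein that binds PDGF-B, was highest in endothelial-like cells at 3618 ± 207 CPM. Lrp1, which encodes an endocytic co-receptor of the Pdgfrb product, was highest in OPC-like cells at 642 ± 71.4 CPM. Nrp1 was highest in endothelial-like cells at 320 ± 26.3 CPM, and Ptprj in OPC-like cells at 37.6 ± 4.95 CPM. Receptor-proximal genes were led by Pik3r1, a regulatory subunit of phosphoinositide 3-kinase, at 303 ± 22.0 CPM in OPC-like cells. Gab1 followed at 150 ± 16.6 CPM in pericyte-like cells, then Nck1 at 129 ± 5.19 CPM and the adaptor Grb2 at 112 ± 3.34 CPM in endothelial-like cells. Of the related receptor tyrosine kinases, Kit had 43.6 ± 6.46 CPM in OPC-like cells. Csf1r, a macrophage-lineage receptor, had 7.13, 10.5 and 76.0 CPM in SC, 5-day and 15-day pericyte-like cells, and Flt3 averaged 0.723 CPM there. Csf1r had too few UMIs in these cells for the size rule. Whether those UMIs came from macrophage-lineage cells was not tested.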

How the data were processed

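The members and the gene lists were chosen with earlier results of these data known. Each deposited matrix gives whole-number UMI counts for every gene in every barcode, not normalized. Per the submitters' processing notes, Cell Ranger, SAMtools and Scanpy 1.4.4 were used with GRCm38; per the file headers, the matrix software was version 3.1.0. The SC, 5-day and 15-day matrices held 7116, 6204 and 7823 barcodes with 59315940, 52735770 and 43193012 UMIs. The cells kept held 49003882, 42943491 and 35083129 UMIs.

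Kept barcodes had 500 or more genes and no more than 20% mitochondrial UMIs. Scrublet's automatic call marked 0%, 1.27% and 1.53% of barcodes in the SC, 5-day and 15-day libraries and so did not work in SC. Instead the barcodes with the highest scores were removed at 0.8% per 1000 barcodes (291, 211 and 344). Counts scaled to 10000 per cell were clustered without integration (3000 variable genes, 40 components, 15 neighbours, Leiden resolution 1, seed 0) with Scanpy 1.11.5 in Python 3.11.15. A cluster was named with at least 3 markers of a set among its 50 leading genes, or at least 5 markers raised by 1 or more on the log2 scale. It stayed unnamed when it held markers of 2 classes, was shallow, or came over 90% from 1 library. This naming rule was set after leading genes had been seen.

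UMIs were summed per class and library. Sums have exact Poisson, ratios conditional-binomial and shares Clopper-Pearson intervals; variation among mice or pools is not in them. Named were all 6 members, the 5 genes most similar to each and, of the pathway list, those past the size rule in a class that leads for a member and up to 4 per role with the highest level there. One gene that this rule names is not reported here. The size rule was tested on simulated counts that held counting error only. Such counts cannot show how the rule behaves under variation between libraries, mice or class make-up. Alternatives are given in the closing section; TMM scaling used edgeR 4.0.16 in R 4.3.3.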

Additional observations from a re-analysis of the deposited data

Results flagged for a closer look

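Pdgfra moved in opposite directions in 2 classes of the 15-day library. Its log2 ratio over the SC library was 0.19 in OPC-like cells and -1.11 in neuron-like cells, with counting intervals that both excluded 0. The difference between the classes was not tested, since each diet has 1 library. Without the OPC-like neuron subcluster, the neuron-like ratio was -1.29 [-1.73 to -0.86]. Without the mixed subclusters as well it was -0.44 [-1.81 to 0.89], at 3.20 CPM in the 15-day and 4.35 CPM in the SC library, a level too low to show a difference.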

How the results depend on the processing

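Of 226 values recomputed under alternatives, 181 stayed within the spread or side set for them, 45 moved and 0 reversed a called value. The cause of a move was not tested. Only a lead whose interval lay above 0 or a diet ratio past the size rule could count as reversed. Counts, shares and all other leads and ratios could not, even where their sign changed. Some alternatives, on subclusters and cluster mixes, were chosen after seeing the data. The log2 lead of pericyte-like over oligodendrocyte-like cells for Pdgfa was -0.36 with no doublets removed, -1.15 with at least 1000 genes per cell, -0.22 with at most 10% mitochondrial UMIs, -1.12 at resolution 2 and -0.62 with the PDGF genes kept in the clustering. In the same order of settings, the Pdgfrb lead was 4.67, 4.11, 3.87, 4.10 and 3.97, and 4.59 with cells weighted equally. The Pdgfra lead was 5.10, 5.66 and 9.49 under the first 3, 5.63 without the cell with most UMIs and 5.76 with 10% free RNA subtracted. The Pdgfb lead was 1.51 with cells weighted equally and 1.43 thinned. For Pdgfa in pericyte-like cells, the 5-day ratio was 0.34 at 10% mitochondrial UMIs and 0.73 in subcluster 8. The 15-day ratio was -0.44 with no doublets removed, -0.52 with 1000 genes and -0.53 at resolution 2. For Pdgfrb there, the 5-day ratio was 0.33 with 1000 genes and the 15-day ratio -0.0031 in subcluster 8. Thinned, Pdgfc in tanycyte-like cells was -0.092 (15-day) and Pdgfd in endothelial-like cells -1.03 (5-day); with cells weighted equally, Pdgfd was -1.18 (15-day). Genes past the size rule, summed over the 7 first and second classes of the members (without neuron-like and ependymal-like cells), numbered 212 (5-day) and 617 (15-day), and 509 and 1184 without the interval limit. Unthinned shares of the leading class were 34.2%, 72.1%, 44.3%, 27.2%, 99.4% and 94.8% for Pdgfa, Pdgfb, Pdgfc, Pdgfd, Pdgfra and Pdgfrb; thinned to 1000 UMIs they were 22.9%, 4.73%, 3.41%, 76.8% and 75.4% for Pdgfb, Pdgfc, Pdgfd, Pdgfra and Pdgfrb. No paired analysis was possible because each diet has 1 library and the labels give no shared replicate numbers. With 1 library per diet, depth limits only the counting error and a diet cannot be told apart from its library.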
